A study of Homo sapiens with 36 samples.

Results

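The interaction between knockdown of KDM6A with KDM6B and cisplatin was measured in 2102EP-C1 cells, a cisplatin-resistant clone of a human embryonal carcinoma (testicular germ cell tumor) line. The members are the 12 libraries of the knockdown experiment, of 36 in the series, and all 16459 genes listed for them. The interaction of a gene is its cisplatin effect in knockdown cells minus its cisplatin effect in control cells, on the log2 CPM scale (log2 of counts scaled to library size). A positive interaction means that cisplatin moved the gene further up, or less far down, in knockdown cells than in control cells. The study asked whether loss of these demethylases changes how resistant cells respond to the drug.

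All 12 libraries came from the same resistant clone, which is a single clone. The control cells (pLKO1) carried the empty lentiviral vector, and the knockdown cells (sh6A+6B) carried short hairpin RNAs against both genes, with 1 hairpin per gene. Each kind of cell was left untreated or given 0.5 µM cisplatin for 6 h, and RNA was taken a day after cisplatin. For a side-by-side view, 12 libraries each of 2102EP-C1 and NT2/D1-A4, a second cisplatin-resistant line, were used, where cells were left untreated or given 0.5 µM cisplatin for 6 h, 1 µM GSK-J4, an inhibitor of both demethylases, for 3 days, or both. Each of the 4 groups had 3 libraries, and the labels do not say whether these were separate cultures, so the p-values measure the spread between these libraries only.

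KDM6A and KDM6B remove methyl groups from lysine 27 of histone H3, a mark that the polycomb complexes place on silenced genes. Cisplatin forms crosslinks in DNA that stall polymerases and activate the p53 pathway. Polymerases must cross the whole gene to make an RNA, and poly(A) selection keeps the RNA by its 3′ end, so the length of a gene or transcript is a property that both transcription and library preparation can act on.

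The libraries held 79.4 to 100.9 M recovered reads. KDM6A was at 7.16, 7.17 and 7.14 log2 CPM in untreated pLKO1 cells and at 6.14, 6.09 and 6.20 in untreated sh6A+6B cells, a difference of -1.01. KDM6B was at 4.61, 4.66 and 4.63 in untreated pLKO1 cells and at 3.51, 3.60 and 3.75 in untreated sh6A+6B cells, also a difference of -1.01. Neither gene overlapped between the 2 kinds of cell, and both RNAs remained measurable after knockdown. All 11 embryonal carcinoma markers were measured, with POU5F1 between 9.26 and 9.37 log2 CPM in every library. Of 14 markers of differentiated derivatives, 6 were listed, and their summed level was 27.1 to 37.4 CPM against 9103 to 10220 CPM for the embryonal carcinoma markers.

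The cisplatin response of sh6A+6B cells differed from that of pLKO1 cells in 2 broad and opposed classes of genes. Short transcripts for ribosomes, respiratory chain and proteasome were lower after cisplatin in pLKO1 cells and higher after it in sh6A+6B cells. Very long transcripts for the cytoskeleton, chromatin and the cell surface were higher in pLKO1 cells and lower in sh6A+6B cells. A gene was called when its interaction passed a 1.3-fold change and an adjusted p under 0.05 (limma, Benjamini-Hochberg adjustment over all genes). By this rule 180 genes, 1.09% of those tested, had a positive interaction, and 440, or 2.67%, a negative one. With no fold limit the adjusted p passed for 2830 genes (17.2%) in the positive and 2955 (18%) in the negative direction. Most interactions were small, and the median size over the 620 called genes was 0.46. A stricter low-level filter, with every library above 1 log2 CPM, left 12206 genes to test and gave 403 calls.

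Cisplatin alone changed fewer genes downward than upward in either kind of cell. In pLKO1 cells 417 genes (2.53%) rose and 76 (0.462%) fell, and in sh6A+6B cells 408 (2.48%) rose and 171 (1.04%) fell. Of the 180 genes with a positive interaction, 163 had cisplatin effects of opposite sign in the 2 kinds of cell, and in 68 each effect had an adjusted p under 0.05 by limma. Of the 440 with a negative interaction, 405 had opposite signs, and 218 passed in both cells. Only 1 gene of the first set and 4 of the second passed the 1.3-fold limit in both kinds of cell. Over all genes 45.3% had effects of opposite sign, and in 9.66% of all genes the signs were opposite and each effect passed the adjusted p. The 2 cisplatin effects make up the interaction, so these counts describe its shape and do not test it.

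The called genes differed in transcript length. The median transcript was 1067 bases for genes with a positive interaction, 9250 for genes with a negative one and 3229 for all genes. Length was known for 15249 genes, or 92.6%. When these were split by length into 10 equal bins, the median interaction fell in each step from 0.16 in the shortest bin, up to 1110 bases, to -0.21 in the longest, from 7627 bases. The median cisplatin effect in pLKO1 cells ran from -0.084 to 0.10 over the same bins, and that in sh6A+6B cells from 0.085 to -0.095. The shortest bin held 81 called genes with a positive and 20 with a negative interaction, and the longest held 0 and 234.

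**Figure D1:**
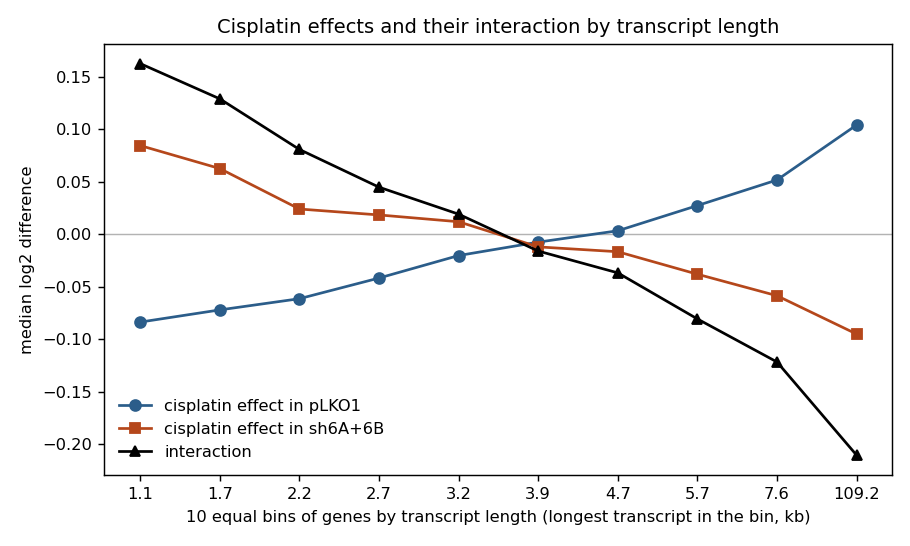
Median log2 difference (y axis) in 10 equal bins of genes ordered by transcript length (x axis, labelled with the longest transcript of each bin in kb), for the cisplatin effect in pLKO1 cells, that in sh6A+6B cells and the interaction. The 2 cisplatin effects slope in opposite directions, and the interaction falls from 0.16 to -0.21.

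Transcript length ordered the interaction more closely than the other properties did. Across the 15249 genes, which are not independent replicates and share the same 12 libraries, Spearman's rho was -0.52 with transcript length, -0.41 with the summed length of all exons, -0.33 with genomic span, -0.062 with GC content and 0.0083 with the mean level. A smooth curve along transcript length held 26.6% of the variance of the interaction across genes. Among the 9512 genes with a mean over 3 log2 CPM, rho with transcript length was -0.65, and among 905 lncRNAs it was -0.12. Long transcripts tend to come from long genes. In the third of genes with the shortest transcripts the median interaction was 0.12 for those with the shortest span and 0.086 for those with the longest, while in the third with the longest transcripts it was -0.066 and -0.14.

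Each library has its own slope on length, taken as its deviation from the 12-library mean per doubling of transcript length. The slope was -0.0123, -0.00788 and -0.00623 in untreated pLKO1 libraries and 0.0387, 0.0301 and 0.0320 after cisplatin. It was 0.0183, 0.00542 and 0.00469 in untreated sh6A+6B libraries and -0.0347, -0.0409 and -0.0271 after cisplatin. The groups did not overlap within either kind of cell, and cisplatin moved the slope up in pLKO1 cells and down in sh6A+6B cells. The difference was 0.0424 in pLKO1 and -0.0437 in sh6A+6B cells, each with p = 0.1 in a two-sided exact permutation test, the smallest that 3 libraries against 3 allow. The interaction of the slopes was -0.0861 with a standard error of 0.00674.

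**Figure D2:**
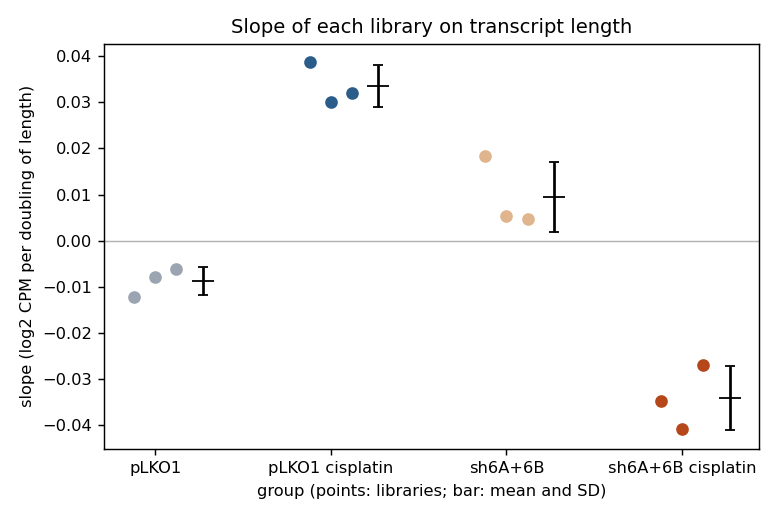
Slope of each library on transcript length (y axis, log2 CPM per doubling of length) in the 4 groups of the knockdown experiment (x axis), with points for libraries and a bar for the mean and SD of 3. The pLKO1 cisplatin libraries lie between 0.0301 and 0.0387 and the sh6A+6B cisplatin libraries between -0.0409 and -0.0271.

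The shift was also seen in the share of all reads. The longest of the 10 length bins took 11.97% ± 0.022 (SD, n = 3) of reads in untreated pLKO1 cells and 13.03% ± 0.058 after cisplatin. It took 12.15% ± 0.068 in untreated sh6A+6B cells and 11.36% ± 0.16 after cisplatin. RNA integrity values were not analysed here, and the part of RNA quality or of library preparation in this shift was not tested.

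The very long transcripts gave the largest negative interactions. TTN encodes titin, the giant elastic protein of muscle, and lies on chromosome 2 at 178525989 to 178807423 (GRCh38.p14) with a transcript of 109224 bases. It was at 4.57, 4.61 and 4.62 log2 CPM in untreated pLKO1 cells, at 5.55, 5.54 and 5.67 after cisplatin, at 5.50, 5.45 and 5.44 in untreated sh6A+6B cells and at 4.89, 4.93 and 5.11 after cisplatin. Cisplatin thus raised all 3 libraries above the untreated range in pLKO1 cells and lowered all 3 below it in sh6A+6B cells. The interaction was -1.47 ± 0.058 (standard error; adjusted p = 1.86e-14, limma).

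DST encodes dystonin, a linker of the cytoskeleton, on chromosome 6 at 56457996 to 56954830. It was at 7.79, 7.81 and 7.77 log2 CPM in untreated pLKO1 cells and at 8.27, 8.25 and 8.31 after cisplatin, against 7.89, 7.86 and 7.87 and then 7.58, 7.57 and 7.66 in sh6A+6B cells. None of these groups overlapped, and the interaction was -0.75 (adjusted p = 1.86e-14, limma). The mucins MUC16, MUC19 and MUC4 (-1.11, -0.93 and -0.78), the nebulin gene NEB (-0.89), the scaffold AHNAK (-0.77) and EPPK1 (-0.72), which encodes epiplakin, followed. MUC19 differed in shape, with an effect of 1.05 in pLKO1 cells and 0.13 in sh6A+6B cells. PCDHGA9 (-0.79) and NBPF14 (-0.74) belong to families of near-identical or overlapping copies, so their counts are uncertain. PWAR6 (-0.78), a noncoding RNA of the Prader-Willi region, had no transcript length in the annotation.

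Of 33 dyneins, spectrins and other giant cytoskeletal proteins, all had an interaction below 0, 17 were called negative, against 2.67% of all genes, and the median was -0.39, against -0.0042 over all genes. The motor subunit DYNC1H1 had an interaction of -0.67. Of 20 giant ubiquitin ligases 8 were called negative, led by HERC2 at -0.71 and RNF213 at -0.65. Among 76 collagens, laminins, integrins and related matrix genes 10 were called negative, with FBN2, a fibrillin, at -0.57 and FN1, fibronectin, at -0.44. Among 82 cadherins and protocadherins 15 were called, with FAT1 at -0.56. Several of these lists were built from large proteins, so their length is part of the choice.

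**Figure D3:**
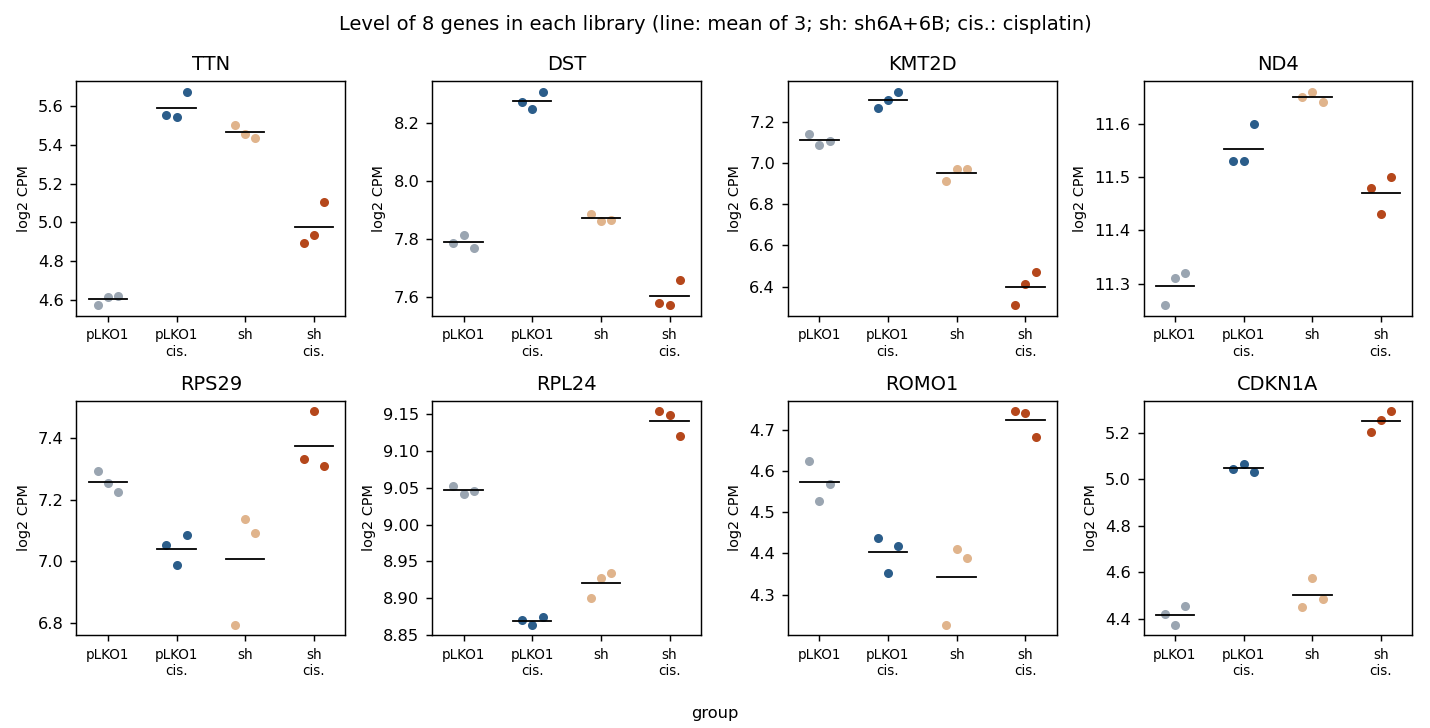
Level of 8 genes in log2 CPM (y axes, each with its own range that does not start at 0) in the 4 groups (x axis), with 3 libraries as points and their mean as a line. TTN, DST, KMT2D and ND4 were higher after cisplatin in pLKO1 and lower after it in sh6A+6B cells, RPS29, RPL24 and ROMO1 the other way, and CDKN1A rose in both.

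Chromatin regulators were on the negative side, and the counts called here stand against 2.67% of all genes. The methyltransferase KMT2D, which acts on lysine 4 of histone H3 and associates with KDM6A, was at 7.14, 7.08 and 7.11 log2 CPM in untreated pLKO1 cells and at 7.27, 7.31 and 7.35 after cisplatin. In sh6A+6B cells it was at 6.91, 6.97 and 6.97, and at 6.31, 6.41 and 6.47 after cisplatin. The groups did not overlap, and the interaction was -0.75 (adjusted p = 4.3e-12, limma). Of 29 lysine methyltransferases 5 were called negative, KMT2A at -0.56 among them, and the median was -0.18. Of 10 CHD remodelers, which move nucleosomes, 3 were called, with CHD2 at -0.47 and CHD3 at -0.47, and the median was -0.33. Of 34 SWI/SNF and INO80 family members 3 were called, with EP400 at -0.52 and ARID1A at -0.39. Of 26 acetyltransferases and bromodomain coactivators 4 were called, with TRRAP at -0.51 and EP300 at -0.44. In all 4 of these lists the calls fell to 0 by limma once the trends on length and GC content, described further on, were removed.

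Not every chromatin gene passed the fold limit. SMARCA4, the SWI/SNF motor, had an interaction of -0.32, with a cisplatin effect of 0.0023 in pLKO1 cells and -0.32 in sh6A+6B cells. Of 22 lysine demethylases none was called by limma, while 14 passed the adjusted p alone in the negative direction, against 18% of all genes, and 1 in the positive. The 14 include KDM6B, a target of the hairpins, at -0.23. With the trends on length and GC content removed, 5 passed in the negative direction, against 14% of all genes. The median of the list then went from -0.14 to -0.037. KDM2A was at -0.29 and KDM5A at -0.22. Of 33 polycomb subunits 1, AEBP2, was called at -0.48, a share close to the 2.67% of all genes, and of 14 DNA methylation genes 1, TET3, at -0.39. DNMT3B, a de novo DNA methyltransferase abundant in these cells, had an interaction of -0.12, with effects of -0.088 in pLKO1 and -0.20 in sh6A+6B cells.

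Ribosomal protein genes had the highest median interaction of the 40 lists. All 79 had an interaction above 0, 76 passed the adjusted p and 16 were called, against 1.09% of all genes. The median interaction was 0.28, from a median cisplatin effect of -0.14 in pLKO1 cells and 0.15 in sh6A+6B cells. Their share of all reads was 4.43% ± 0.035 in untreated pLKO1 cells and 4.06% ± 0.031 after cisplatin, against 4.16% ± 0.077 and 4.64% ± 0.091 in sh6A+6B cells (SD, n = 3).

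RPL24, a protein of the large subunit, was at 9.05, 9.04 and 9.04 log2 CPM in untreated pLKO1 cells and at 8.87, 8.86 and 8.87 after cisplatin. In sh6A+6B cells it was at 8.90, 8.93 and 8.93, and at 9.15, 9.15 and 9.12 after cisplatin. The groups did not overlap, and the interaction was 0.40 (adjusted p = 2.57e-12, limma). RPS29, a protein of the small subunit on chromosome 14 at 49570988 to 49598710, was at 7.29, 7.25 and 7.23 in untreated pLKO1 cells, 7.05, 6.99 and 7.08 after cisplatin, 6.79, 7.14 and 7.09 in untreated sh6A+6B cells and 7.33, 7.49 and 7.31 after cisplatin. Its interaction was 0.59, and 1 untreated sh6A+6B library lay well below the other two. RPS3A followed at 0.56 and RPS6 at 0.38. Ribosomal proteins have many processed pseudogenes with almost the same sequence, so reads could be split between copies.

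Nuclear genes for mitochondria went the same way. Of 76 mitochondrial ribosomal proteins 6 were called, against 1.09% of all genes, with MRPS15 at 0.47 and MRPL13 at 0.38, and the median was 0.23. Of 83 respiratory chain genes 4 were called, with the complex III assembly factor UQCC2 at 0.53 and the oxidase subunit COX7B at 0.43, and the median was 0.24. ROMO1, a small protein of the mitochondrial inner membrane, was at 4.62, 4.53 and 4.57 log2 CPM in untreated pLKO1 cells and 4.44, 4.35 and 4.42 after cisplatin. In sh6A+6B cells it was at 4.23, 4.41 and 4.39, and at 4.75, 4.74 and 4.68 after cisplatin. The ranges did not overlap within either kind of cell, and the interaction was 0.55.

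The mRNAs of the mitochondrial genome went the other way. These 13 genes encode core respiratory chain subunits, and all are short, with a median of 784 bases. All 13 had a negative interaction with an adjusted p under 0.05 and 8 were called, against 2.67% of all genes, with a median of -0.40. ND4, a complex I subunit, was at 11.26, 11.31 and 11.32 log2 CPM in untreated pLKO1 cells and 11.53, 11.53 and 11.60 after cisplatin. In sh6A+6B cells it was at 11.65, 11.66 and 11.64, and at 11.48, 11.43 and 11.50 after cisplatin. The untreated sh6A+6B libraries thus started above every pLKO1 library, the groups did not overlap, and the interaction was -0.43. ATP6, a subunit of ATP synthase, had an interaction of -0.45. These transcripts are made from long shared precursors, so the 13 are not separate observations.

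Several other housekeeping lists held the same sign with fewer calls, which stand against 1.09% of all genes called positive and 2.67% called negative. Of 35 proteasome subunits 3 were called positive, PSMB3 at 0.40 and PSMA5 at 0.39 among them, and the median was 0.23. Of 26 small spliceosomal proteins 2 were called, SNRPG at 0.44 and SNRPB at 0.41. The SR and hnRNP splicing factors held no single direction, with 23 of 38 below 0 and a median of -0.048. The adjusted p passed for 13 of them in the positive and 13 in the negative direction. Called negative were 2, SRRM2 at -0.48 and HNRNPUL2 at -0.39. All 14 chaperonin and prefoldin subunits had a positive interaction past the adjusted p, against 17.2% of all genes, and none was called, with PFDN5 at 0.34 and CCT4 at 0.29. Among 64 translation factors 1 gene was called, a share close to the 1.09% of all genes. It was EEF1AKMT1 at 0.55, which encodes a methyltransferase that modifies an elongation factor and not a factor itself.

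Of 32 replication-dependent histone genes 5 were called positive, against 1.09% of all genes. H1-2, a linker histone, was at 6.03, 6.02 and 6.06 log2 CPM in untreated pLKO1 cells and 5.37, 5.48 and 5.51 after cisplatin, against 6.05, 6.12 and 6.06 and then 5.98, 5.96 and 5.90 in sh6A+6B cells. It fell in pLKO1 cells by 0.58 and had an effect of -0.13 in sh6A+6B cells. H4C3 had an interaction of 0.58 from 217 to 378 reads per library. Histone mRNAs of this kind mostly lack a poly(A) tail, and the genes are near-identical copies, so these counts are uncertain.

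**Figure D4:**
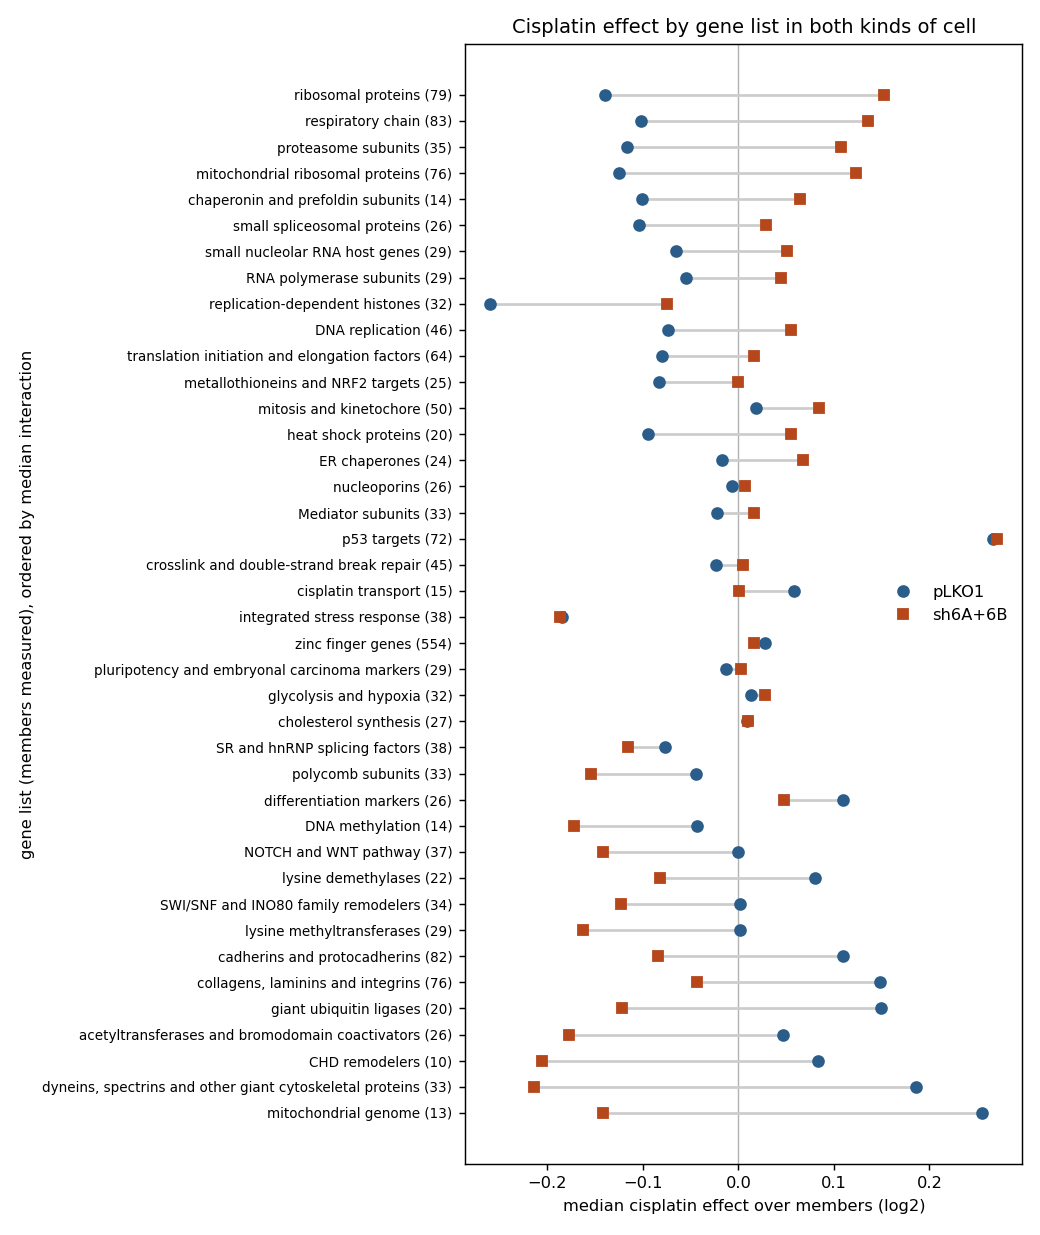
Median cisplatin effect (x axis, log2) over the members of 40 gene lists (y axis, with the number measured) in pLKO1 cells (circles) and sh6A+6B cells (squares), ordered by median interaction. Ribosomal proteins run from -0.14 to 0.15 and mitochondrial genome mRNAs from 0.26 to -0.14, while p53 targets stand at 0.27 in both.

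Within many lists, long and short members lay on different sides. The split was made at the median transcript of all genes, 3229 bases. Among all genes, 56.5% to 78.4% had an interaction above 0 in the length bins up to 3229 bases. In the longer bins 12.9% to 44.9% did. A split of this kind was thus present over all genes and is not particular to these lists. Of 33 Mediator subunits, 15 of the 19 short members and 2 of the 14 long ones had an interaction above 0, with medians of 0.14 and -0.14. MED31 was called positive at 0.38, and MED13L and MED12 negative at -0.40 and -0.40. Among RNA polymerase subunits POLR1H, a small subunit, was called positive at 0.38 and POLR2A, the largest subunit of polymerase II, negative at -0.41. Of 34 SWI/SNF and INO80 family members, the 7 short ones had a median of 0.16 and the 27 long ones one of -0.20. The mitosis list held a median of 0.17 over 29 short and -0.0040 over 21 long members, with MKI67, the proliferation marker, at -0.54 and CENPF, a kinetochore protein, at -0.43. Among 45 repair genes all 12 short members and 14 of the 33 long ones were above 0, with medians of 0.13 and -0.068, and PRKDC, the kinase of end joining, was called at -0.54. Lists with a median near 0 were split as well: 14 of 18 short and 0 of 11 long pluripotency genes were above 0, 16 of 23 and 2 of 15 genes of the integrated stress response, and 11 of 15 and 2 of 12 genes of cholesterol synthesis.

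Before cisplatin, the 72 p53 targets had a median difference of 0.058 between sh6A+6B and pLKO1 cells. This difference was 0.39 for FAS, 0.44 for ANXA1, 0.31 for BTG2, 0.13 for SESN1, 0.087 for CDKN1A and 0.038 for DRAM1. The interaction leaves it out. The p53 targets had a median cisplatin effect of 0.27 in both kinds of cell and a median interaction of 0.015, with 1 member called, against 1.09% of all genes. The median near 0 covered members on both sides, since 27 of 37 short members and 12 of 35 long ones had an interaction above 0. Their medians were 0.069 and -0.063. Both shares lay within those of all genes in length bins up to 3229 bases (56.5% to 78.4%) and in longer bins (12.9% to 44.9%). The called gene, SERTAD1, a regulator of the cell cycle, was at 2.29, 2.20 and 2.19 log2 CPM in untreated and 2.34, 2.32 and 2.25 in treated pLKO1 cells. In sh6A+6B cells it was at 2.13, 2.19 and 2.11, and at 2.70, 2.58 and 2.68 after cisplatin. CDKN1A, the cell cycle inhibitor p21, rose by 0.63 in pLKO1 and by 0.75 in sh6A+6B cells, with an interaction of 0.12 ± 0.047 (adjusted p = 0.0588, limma). The death receptor FAS had an interaction of 0.29 (adjusted p = 0.00517, limma), under the fold limit, and the antiproliferative BTG2 one of 0.016 (adjusted p = 0.87, limma). SESN1 was at 0.16, ANXA1 at 0.13 and DRAM1 at 0.074. The integrated stress response had a median of -0.0094, with 1 of 38 members called, the cystine transporter SLC7A11 at -0.46. The median was -0.013 over 29 pluripotency genes, where TRIM71 alone was called, at -0.39. It was -0.0094 over 554 zinc finger genes, with 4 called positive and 9 negative. The calls in these lists were close to or below the shares of all genes, 1.09% positive and 2.67% negative. The median was -0.017 over 32 genes of glycolysis and hypoxia and -0.024 over 27 of cholesterol synthesis. None of the cholesterol genes was called by limma. Past the adjusted p were 9 of them in the positive and 7 in the negative direction, against 17.2% and 18% of all genes. DNA replication genes had a median of 0.12, with none of 46 called and PCNA, the sliding clamp, at 0.32.

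To see what was left beside length, a smooth trend on transcript length and GC content was removed from every library. In the values so adjusted 87 genes (0.571% of 15249) were called positive and 170 (1.11%) negative, and the adjusted p alone passed for 2284 (15%) and 2136 (14%). Of the 154 positive calls with a known length 47 remained, 30.5% of them and 54.0% of the calls after adjustment. Of the 377 negative calls 95 remained, 25.2% and 55.9%. No called gene changed sign. The trend was estimated from the same genes, so a response shared by long genes for any reason was removed with it.

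The mitochondrial genome mRNAs moved further from 0, from a median of -0.40 to -0.55, with 13 of 13 called. Their median length of 784 bases falls in the shortest bin, where the median interaction of all genes was 0.16. Removing that positive trend lowers any short transcript, so the added distance and calls follow from their length. Ribosomal proteins went from 0.28 to 0.18, with 73 of 79 above 0 and 2 called. The giant cytoskeletal proteins went from -0.39 to -0.18 with 1 called, and the CHD remodelers from -0.33 to -0.12 with 0 called by limma, though 6 passed the adjusted p. Lysine methyltransferases went from -0.18 to -0.031, and histones from 0.13 to 0.0081. The calls of giant ubiquitin ligases went from 8 to 0, of mitochondrial ribosomal proteins from 6 to 1, of respiratory chain genes from 4 to 2 and of proteasome subunits from 3 to 0, and 5 of 14 chaperonin and prefoldin subunits still passed the adjusted p. Of the genes described above, KMT2D went from -0.75 to -0.32, DST from -0.75 to -0.36, HERC2 from -0.71 to -0.37 and DYNC1H1 from -0.67 to -0.27, and all 4 lost the call. Single genes that remained called included TTN at -0.64, MUC16 at -0.50, NEB at -0.46 and PCDHGA9 at -0.70, and in the other direction ROMO1 at 0.45, RPS29 at 0.44 and DPPA5, a pluripotency-associated gene, at 0.43. ZNF627, a zinc finger gene with a transcript of 2803 bases, hardly moved, from 0.50 to 0.43. It was at 4.95, 4.99 and 5.03 log2 CPM in untreated and 4.97, 4.94 and 4.94 in treated pLKO1 cells, and at 4.37, 4.39 and 4.44 and then 4.88, 4.84 and 4.85 in sh6A+6B cells. PWWP3B showed the same shape, with effects of 0.00096 in pLKO1 and 0.51 in sh6A+6B cells.

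**Figure D5:**
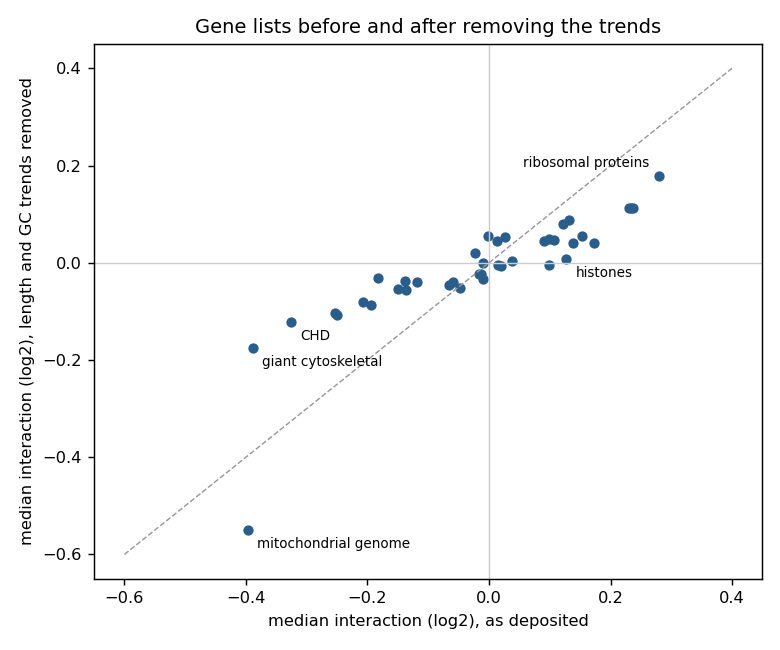
Median interaction (log2) of 40 gene lists with the length and GC trends removed (y axis) against the value without removal (x axis), with a dashed line of equality. Most lists lie nearer 0 on the y axis, and the mitochondrial genome mRNAs lie further from it, at -0.55 against -0.40. Removal of the trend lowers short transcripts such as these.

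The same interaction with GSK-J4 in place of the hairpins gave smaller length terms. The interaction of the library slopes was -0.0154 with a standard error of 0.0108 in 2102EP-C1 cells and 0.00045 with one of 0.022 in NT2/D1-A4 cells. Ribosomal proteins had medians of 0.076 and 0.066 there, and giant cytoskeletal proteins -0.098 and -0.0072. The mitochondrial genome mRNAs had a median of 0.66 in 2102EP-C1 cells, opposite in sign to the -0.40 with knockdown, and of 0.092 in NT2/D1-A4 cells, where 9 of 13 were above 0 and ATP6 was at 0.092 with a standard error of 0.30. The experiments already differed in sign for cisplatin alone. Its effect on ND4 was -0.45 in untransduced 2102EP-C1 cells and -0.42 in NT2/D1-A4 cells, against 0.26 in pLKO1 cells. After GSK-J4 the effect on ND4 was 0.21 in 2102EP-C1 and -0.44 in NT2/D1-A4 cells. DST had an interaction of -0.44 (adjusted p = 0.00879, limma) in 2102EP-C1 cells. The difference between the experiments was not tested.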

How the data were processed

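RNA-seq of 12 libraries was analysed in 4 groups of 3, grouped by the sample labels. Per the study's methods, Trimmomatic, STAR (on GRCh38.p14) and featureCounts gave read counts per gene, genes had to exceed 0.5 CPM in 2 or more samples, and library sizes were scaled by TMM. Tool versions and the strand setting of the count are not given in the sources used here. The values deposited by the authors are log2 CPM with a prior count of 3, and 100% of values under 50 reads gave whole reads within 0.05. On these reads 16273 of 16459 genes passed the stated filter.

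The interaction was fitted with limma 3.58.1 in R 4.3.3 (group means, intensity trend, no block, 8 residual degrees of freedom). Transcript length and GC content came from GENCODE by symbol, and positions from RefSeq on GRCh38.p14. Trends were removed with splines of 4 degrees of freedom. Named genes were the 12 largest interactions per direction among called genes with a mean log2 CPM of at least 1, the lowest p-values in each of 40 lists, the 5 largest per direction with opposite effects or called after trend removal, and 12 genes tied to the study's question. Loci without a name, pseudogenes and antisense genes were passed over, and some genes that meet the rule are not reported here. The members and lists were chosen with earlier results of these data known. The method was tested on simulated data. Alternatives were other filters, scalings, thresholds and trends, voom, a replicate block and leaving out each library. Figures were drawn in Python 3.11.15 with matplotlib 3.10.9.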

Additional observations from a re-analysis of the deposited data

Results flagged for a closer look

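The cisplatin effect differed between pLKO1 and sh6A+6B cells, by the interaction term itself in limma, for 620 genes past a 1.3-fold change and an adjusted p under 0.05. The named genes with the highest positive interactions among them were DPPA5 at 0.59, RPS29 at 0.59, H4C3 at 0.58, RPS3A at 0.56, ROMO1 at 0.55, BLOC1S1 at 0.55, UQCC2 at 0.53, TMEM31 at 0.53, ING4 at 0.51, PWWP3B at 0.51, ZNF627 at 0.50 and PSMA6 at 0.48 on the log2 scale. Those with the lowest were TTN at -1.47, MUC16 at -1.10, MUC19 at -0.93, NEB at -0.89, PCDHGA9 at -0.79, MUC4 at -0.78, PWAR6 at -0.78, AHNAK at -0.77, DST at -0.75, KMT2D at -0.75, NBPF14 at -0.74 and EPPK1 at -0.72. Groups of 3 libraries are too small to test a single library for standing apart.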

How the results depend on the processing

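The 620 interaction calls (180 positive, 440 negative) became 403 (98 positive) with a log2 value over 1 in every library, 257 (87 and 170) with length and GC trends removed, 251 (92 and 159) with the length trend alone removed, 5785 (2830 and 2955) with no fold limit and 1201 (455 and 746) at a fold of 1.2 and an adjusted p under 0.001. With that filter, which tests fewer genes, cisplatin calls were 152 against 493 in pLKO1 and 186 against 579 in sh6A+6B cells. Restricting to genes with a known length, chosen after seeing the data, gave 544. Leaving out each library gave 567 to 693 calls, 156 to 210 positive and 411 to 488 negative, with 447 to 512 and 548 to 598 cisplatin calls and a slope interaction of -0.0897 to -0.0817. The slope interaction, -0.0861, was -0.0663 with exon length, -0.0301 with genomic span, -0.104 with the filter, -0.0958 with GC content and level as terms and, chosen after seeing the data, -0.104 for transcripts of 1 to 10 kb. No called gene among the 105 named changed sign under any of these alternatives. With both trends removed 48 lost the call and 56 stayed the same. The 56 include named genes that were not called in the first place, so the share of calls lost was larger than 48 of 105. Same-numbered libraries correlated over 0.1 in 7 of 18 pairs (-0.30 to 0.50, median -0.0021), among them all 3 pairs of pLKO1 cisplatin with sh6A+6B and none with untreated pLKO1, so the numbers were not taken to pair the libraries. The replicate block gave 188 positive and 448 negative calls, and with the trends removed 261 (88 and 173). The cause of these shifts was not tested.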
